A study of Mus musculus with 24 samples.

Results

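RNA sequencing libraries of mouse ventral prostate organoids of the control genotype, from clone 1 (5 libraries) and clone 2 (5 libraries), were compared with each other. These are 10 of the 20 RNA libraries and 10 of the 24 samples of the series, chosen by genotype and clone as the labels give them. Organoids are epithelial cultures that form from dissociated cells embedded in Matrigel, an extract of basement membrane. Per the labels, the tissue was the ventral prostate of a mouse aged 4 months, 3000 cells were seeded in each dome of 30 µL, and the RNA of each dome gave its own library. Both clones carry the genotype written Tmprss2-fl/fl-ERG. That name holds both Tmprss2 and ERG, so it does not show an unmodified locus, and no other allele or agent is named that would set the clones apart. The other 10 RNA libraries, of the genotype Tmprss2-ERG (T-ERG), are used only to ask how far another pair of clones differed. Domes are technical replicates of 2 cultures, and the labels do not say whether each clone had a mouse of its own. Every p-value below therefore sets the difference between these cultures against the spread between domes, and does not speak for other clones or animals.

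The ventral prostate epithelium holds luminal cells, which make secretions under androgen, and basal cells, which express keratins 5 and 14 and can take up a squamous programme. In squamous differentiation a stratified epithelium replaces its basal keratins with those of the upper layers, and builds the cornified envelope from involucrin, small proline-rich proteins and filaggrin-like proteins, while its cells leave the cycle. Inflamed epithelia make neutrophil-attracting chemokines and antimicrobial proteins, many of them targets of NF-kB.

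Levels are FPKM, mapped fragments corrected for the length of the transcript and for the total of the library, given as the mean ± SD over 5 domes. Differences are clone 2 minus clone 1 on the log2(FPKM + 1) scale, given ± SE, a scale on which changes between low levels look smaller than they are. A gene was tested when 5 or more of the 10 libraries had it at 1 FPKM or above, and called when its limma p, adjusted over all 12010 tested genes, was under 0.05. FPKM values carry no read counts, so the depth is unknown. The FPKM of a library summed to between 728255 and 760299 in clone 1 and between 736610 and 749403 in clone 2, and depths estimated from rare genes overlapped (0.932 to 1.13 against 1 to 1.11). Each rare gene was centred on the libraries that held it, which draws this estimate towards 1. The rare genes behind it numbered 545 to 662 in clone 1 and 682 to 827 in clone 2. The overlap therefore does not show that depths were equal. More genes were above 0 in clone 2 (15110 to 15455) than in clone 1 (14621 to 14985), and the 100 most abundant genes held 35.6% to 36.5% of the FPKM in clone 2 against 38.7% to 39.5% in clone 1. Over tested genes, log2 values of domes correlated at 0.964 to 0.971 within clone 1, at 0.967 to 0.973 within clone 2 and at 0.927 to 0.932 between the clones. Genes are not independent replicates, so these correlations only describe the libraries. No dome stood nearer to the other clone than to its own, and the leading principal component, with 48.2% of the variance, separated the clones.

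The labelled tissue was checked against its markers. Epithelial genes were abundant in both clones: Krt5, a basal keratin, had 5222 ± 281 FPKM in clone 1 and 5844 ± 45.3 FPKM in clone 2, Krt8, a luminal keratin, 58.2 ± 5.85 FPKM in clone 1 and 126 ± 2.84 FPKM in clone 2, and Tmprss2, the androgen-regulated protease in the genotype's name, 101 ± 7.1 FPKM in clone 1 and 95.3 ± 5.98 FPKM in clone 2. The probasin gene Pbsn, a marker of differentiated luminal cells, was listed at 0 in all 10 libraries. Of 25 leukocyte markers, 13 were at 0 in all 10 libraries, Ptprc among them, and the list summed to 5.04 to 9.09 FPKM in clone 1 and 10.4 to 15.6 FPKM in clone 2. The 14 endothelial markers summed to 2.13 to 10.2 FPKM and to 5.79 to 9.98 FPKM. The 28 mesenchymal and muscle markers summed to 89.3 to 123 FPKM in clone 1 and 98.5 to 122 FPKM in clone 2. Most of this sum was S100a4, with 93.4 ± 14.2 FPKM in clone 1 and 97.7 ± 8.39 FPKM in clone 2. Of the 28 markers, 11 were at 0 throughout. The part of such other cell types in the differences below was not tested. Erg, the ETS factor gene in both genotype names, had 1.08 ± 0.449 FPKM in clone 1 and 1.58 ± 0.457 FPKM in clone 2, with a difference of 0.33 ± 0.20 (limma adjusted p = 0.224). Tmprss2 differed by -0.087 ± 0.061 (adjusted p = 0.29) and Rad21, the cohesin subunit in the title of the series, by 0.015 ± 0.05 (adjusted p = 0.839). None of these 3 genes was called, and their domes overlapped, although Tmprss2 was called lower after median centring (-0.18, adjusted p = 0.032).

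The clones differed in many genes, most of them by less than 1 log2 unit. Of 12010 tested genes, 3178 (26.5%) were called higher and 1688 (14.1%) lower in clone 2. The median of all tested genes was itself 0.10 log2 units higher in clone 2. With the libraries centred on their medians, 2328 genes (19.4%) were called higher and 2253 (18.8%) lower, so the share of calls that were higher went from 65.3% to 50.8%. Differences of at least 1 log2 unit were called for 562 genes (4.68%) in the higher and 326 genes (2.71%) in the lower direction. All 5 domes of clone 2 lay above all 5 of clone 1 for 2365 genes (19.7%) and below them for 1298 (10.8%). The median absolute difference was 0.264 log2 units, against a median SD between domes of 0.187 in clone 1 and 0.163 in clone 2. The lists of genes below are read against these shares and against the median of 0.10, and their members not named by the rule given with the processing were picked after their values were seen.

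In broad terms clone 2 had more inflammatory and cell cycle transcripts and less of the squamous programme. Of 116 tested genes in 6 inflammatory lists, 64 were higher and 13 lower in clone 2 (median 0.54). Of 137 tested genes in 7 squamous lists, 22 were higher and 89 lower (median -0.52). The 6 proliferative lists had 190 of 284 tested genes higher and 8 lower (median 0.61). The 15 metabolic lists were mixed, with 150 of 422 tested genes higher and 106 lower (median 0.11), and 114 higher and 130 lower after centring. In bulk libraries, fewer cells of a kind and less RNA per cell cannot be told apart.

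**Figure D1:**
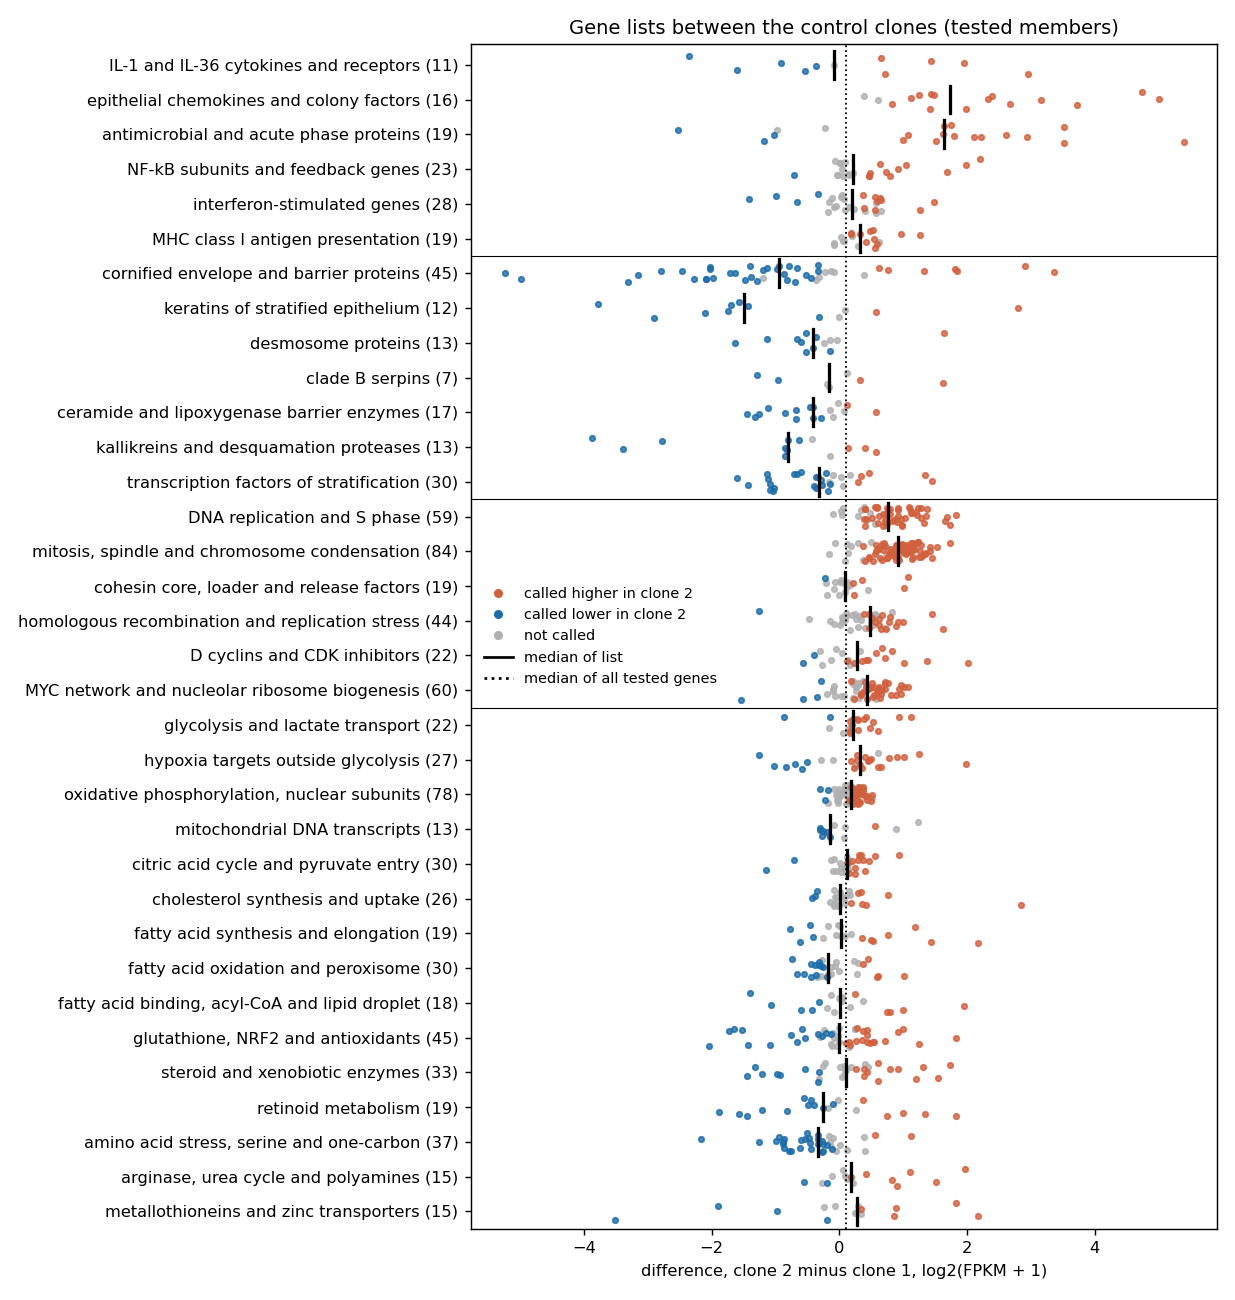
Each point is a tested gene, placed by its difference between the control clones (clone 2 minus clone 1, log2(FPKM + 1)) in the row of its list, with the number of tested members in brackets. Colours mark genes called higher, called lower or not called, black bars the medians of lists and the dotted line the median of all tested genes, 0.10. Chemokine and antimicrobial genes lie to the right (medians 1.74 and 1.64), cornified envelope genes and keratins to the left (medians -0.95 and -1.5), and the DNA replication and mitosis lists form compact clusters at 0.77 and 0.92.

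The 24 genes that lead the comparison come mostly from the inflammatory and squamous programmes. Among the 12 that were highest in clone 2 relative to clone 1 were Ltf, Cxcl3, Cxcl5, Cxcl1, S100a9 and Lcn2, all of the chemokine and antimicrobial lists. The remaining 6 were Cp (ceruloplasmin, a copper-binding ferroxidase), Galnt6 (an enzyme that starts mucin-type O-glycans), Pxdn (peroxidasin, which cross-links basement membrane collagen), the matricellular genes Thbs1 and Ctgf, and Cald1 (the actin-binding protein caldesmon). Among the 12 that were lowest were Cnfn, Rptn, Flg and Crnn of the cornified envelope, Krt1, and the kallikrein protease genes Klk10 and Klk11. The others were the metallothionein gene Mt3, the epithelial differentiation gene Dapl1, Ntm (neurotrimin, an adhesion protein on the cell surface), Gpnmb (a transmembrane glycoprotein) and Zg16 (a secreted lectin). Their differences ran from 3.37 to 5.39 and from -2.93 to -5.24 log2 units, with adjusted p between 5.21e-13 and 4.40e-07, and the rule that chose them required domes that did not overlap.

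**Figure D2:**
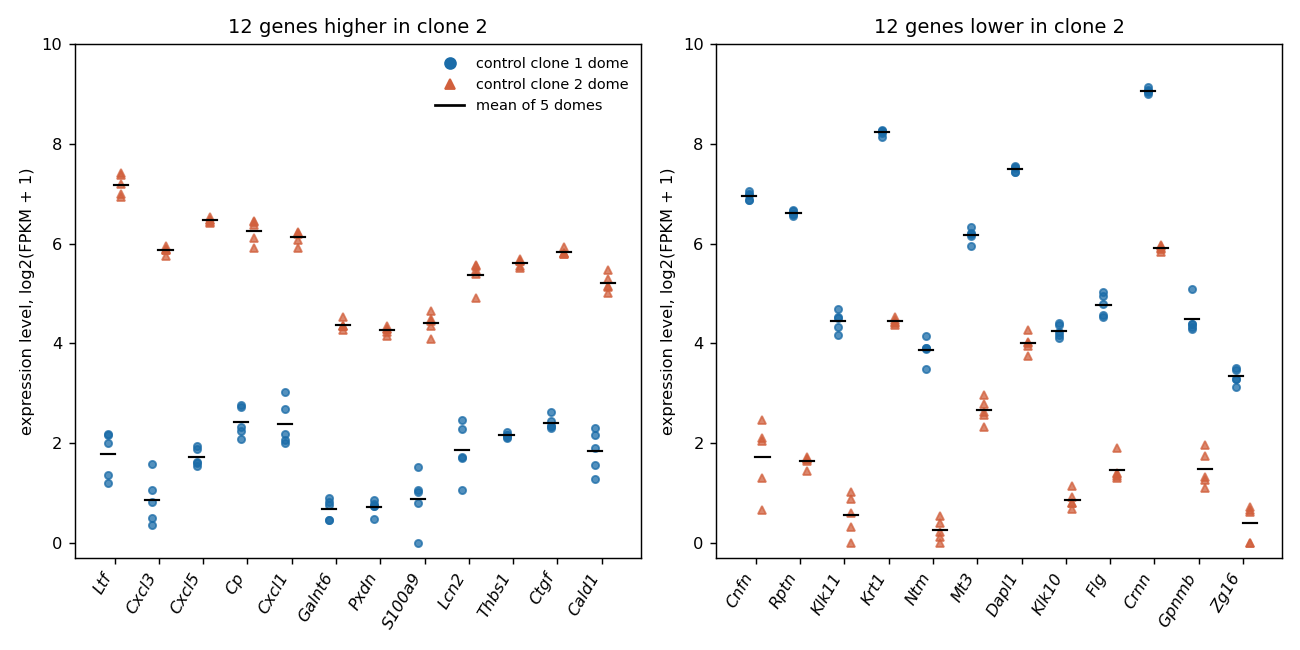
Expression level, log2(FPKM + 1), of the 24 leading genes in each of the 10 control domes, with circles for clone 1, triangles for clone 2 and a bar for the mean of 5 domes. No circle reaches a triangle for any gene, and the domes of a clone scatter most where the level is near 0, as for Cnfn in clone 2 and S100a9 in clone 1.

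Chemokine genes were higher in clone 2 nearly throughout. Of 16 tested genes for epithelial chemokines and colony factors, 14 were called higher and 0 lower (87.5% against 26.5% of all tested genes), with a median of 1.74. Cxcl5, a ligand of the neutrophil receptor CXCR2, lies on chromosome 5, 90759298 to 90761625 (GRCm38.p6), and had 1.92, 2.7, 2.82, 2.06 and 2.03 FPKM in the domes of clone 1 and 91.2, 85.4, 87.5, 88.3 and 84.3 FPKM in those of clone 2. Every dome of clone 1 was thus near the low end of expression and every dome of clone 2 far above it. The difference was 4.75 ± 0.088 log2 units (limma adjusted p = 7.47e-12). Cxcl3, another CXCR2 ligand (chromosome 5, 90786101 to 90788093), had 0.41, 1.08, 1.98, 0.29 and 0.76 FPKM in the domes of clone 1 and 60.5, 57.9, 57.9, 52.8 and 58.1 FPKM in those of clone 2. It was under 2 FPKM in each dome of clone 1 and above 50 FPKM in each of clone 2, a difference of 5.01 ± 0.20 (adjusted p = 4.35e-09). For Cxcl1 (chromosome 5, 90891245 to 90893121) the levels were 4.45 ± 1.79 FPKM in clone 1 and 68.9 ± 6.6 FPKM in clone 2, with a difference of 3.73 ± 0.18 (adjusted p = 2.80e-08). Cxcl2 and Csf3, the gene of the neutrophil growth factor G-CSF, were lower in level but moved the same way, by 2.40 ± 0.22 and 2.32 ± 0.20. Cxcl16, which also serves as a membrane-bound adhesion protein, had 31.8 ± 2.26 FPKM in clone 1 and 70.3 ± 3.84 FPKM in clone 2. Ccl2, the monocyte chemokine, was listed at 0 in all 5 domes of clone 1 and had 1.39, 1.74, 1.39, 2.17 and 1.92 FPKM in those of clone 2. Csf2 was below the filter, with 0.322 and 3.08 FPKM in clone 1 and clone 2. Reads of Cxcl1, Cxcl2 and Cxcl3, which are close paralogs and neighbours on chromosome 5, may be shared among them.

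Promoter stretches of the 3 neighbouring chemokine genes are shown because they carry the same NF-kB motif. The sequences are from RefSeq (GRCm38.p6), each a stretch of 80 bases from before the start of the gene, written 5′ to 3′ on the gene's strand, with matches to GGGA, any 2 bases and TTCC on either strand in capitals.
Cxcl1, chr5:90891145-90891224, plus strand: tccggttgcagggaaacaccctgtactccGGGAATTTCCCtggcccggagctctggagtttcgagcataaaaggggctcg
Cxcl2, chr5:90903773-90903852, plus strand: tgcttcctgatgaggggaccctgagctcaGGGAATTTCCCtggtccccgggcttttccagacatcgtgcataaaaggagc
Cxcl3, chr5:90785999-90786078, plus strand: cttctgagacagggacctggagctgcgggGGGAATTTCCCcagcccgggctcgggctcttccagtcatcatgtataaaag
In each of them a match on the plus strand and a match on the minus strand overlap and together cover 11 letters. Counted from the start of the gene, the match nearest to it ends at position -61 in Cxcl1, -87 in Cxcl2 and -63 in Cxcl3. The motif, chosen with the values in view, was in 4 of the 10 promoters matched for the tested chemokine genes, in 1.51% of the promoters of 8874 tested genes and in 1.43% of 27025 promoters, each from 250 bases before to 50 after the start. It was in 1 of 19 promoters of the NF-kB list and in 0 of 12 of the antimicrobial list. A match is a description of letters and was not tested as a binding site.

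Antimicrobial and acute phase genes were higher in clone 2 for 14 of 19 tested members and lower for 3, with a median of 1.64. Ltf, which encodes the iron-binding protein lactoferrin and lies on chromosome 9, 111019292 to 111042766, had 1.57, 3.03, 1.31, 3.57 and 3.47 FPKM in the domes of clone 1 and 171, 126, 146, 120.5 and 165 FPKM in those of clone 2. It had the largest called difference of all genes in the named set, 5.39 ± 0.20 log2 units (adjusted p = 3.22e-09), and no dome of clone 1 came near those of clone 2. S100a9, a subunit of the neutrophil protein calprotectin, had 1.08, 1.86, 1.04, 0.74 and 0 FPKM in the domes of clone 1 and 16.1, 24.1, 21, 21.3 and 19.5 FPKM in those of clone 2, a difference of 3.53 ± 0.24 (adjusted p = 3.79e-07). Its partner S100a8 was listed at 0 in every dome of clone 1 and had 6.91, 7.61, 4.94, 3.06 and 4.1 FPKM in clone 2. In clone 2 no dome of either calprotectin gene reached the level of Ltf, while in clone 1 the domes of S100a9 and Ltf overlapped at low levels. Lcn2, which binds bacterial siderophores, had 2.82 ± 1.39 FPKM in clone 1 and 41.1 ± 7.05 FPKM in clone 2, and differed by 3.52 ± 0.24. Wfdc18, of the WAP domain family, and Lbp, which binds lipopolysaccharide, were also on only in clone 2, with means of 0 and 6.77 FPKM and of 0.02 and 2.18 FPKM in clones 1 and 2. Nos2, the inducible nitric oxide synthase, had means of 0.104 and 2.19 FPKM (1.52 ± 0.16, adjusted p = 1.76e-05). The 3 members that were lower were Wfdc12, a protease inhibitor of the same family, with 20.4 ± 2.02 FPKM in clone 1 and 2.73 ± 0.597 FPKM in clone 2 (-2.53 ± 0.12), the beta-defensin gene Defb1, with 398 ± 37.5 FPKM in clone 1 and 174 ± 6.77 FPKM in clone 2 (-1.19 ± 0.064), and the beta-defensin gene Defb2, with 48.8 ± 20.1 FPKM in clone 1 and 21.7 ± 1.32 FPKM in clone 2 (-1.03 ± 0.25).

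Other inflammatory lists moved less or were split. Of 23 tested NF-kB subunit and feedback genes, 11 were higher and 1 lower (median 0.22). Tnfaip3, the gene of the feedback inhibitor A20, had 4.89 ± 0.315 FPKM in clone 1 and 22.3 ± 2.05 FPKM in clone 2 (1.98 ± 0.083, adjusted p = 7.78e-09), and Tnip3, which binds A20, had 2.08, 4.81, 0.5, 0.74 and 0.77 FPKM in the domes of clone 1 and 8.62, 10.5, 12, 10.9 and 9.14 FPKM in those of clone 2. Domes of clone 1 varied more for Tnip3 than for most genes, but none reached clone 2 (2.21 ± 0.33, adjusted p = 0.000226). Nfkbia, the inhibitor IkB-alpha, differed by 0.80 ± 0.064, while Nfkbiz had 25.3 ± 0.718 FPKM in clone 1 and 24.9 ± 1.52 FPKM in clone 2. The 1 lower gene was Map3k8, a kinase upstream of ERK, with 3.1 ± 0.717 FPKM in clone 1 and 1.5 ± 0.45 FPKM in clone 2 and overlapping domes.

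The IL-1 and IL-36 list was divided evenly, with 5 of 11 tested members higher and 5 lower. Il33, an alarmin of epithelial nuclei that also marks basal cells, had 37.1, 33.6, 34.6, 33.4 and 35.7 FPKM in the domes of clone 1 and 268, 287, 284, 282 and 266 FPKM in those of clone 2. Its difference was 2.96 ± 0.044 (adjusted p = 1.50e-12), and the domes of each clone lay close together. Il18r1, a chain of the IL-18 receptor, rose with it (1.96 ± 0.14), as did Il1a (0.72 ± 0.06). On the lower side were Il1r2, the decoy receptor of IL-1, with 9.62 ± 2.4 FPKM in clone 1 and 1.1 ± 0.483 FPKM in clone 2 (-2.35 ± 0.21), and Il1rl2, the IL-36 receptor, with 19.4 ± 2.56 FPKM in clone 1 and 5.71 ± 0.933 FPKM in clone 2 (-1.60 ± 0.12). Il1b was listed at 0 in all 10 libraries. Of 28 tested interferon-stimulated genes, 9 were higher (32.1%, against 26.5% of all tested genes) and 4 lower (14.3%, against 14.1%), with a median of 0.19. Lgals3bp (1.49 ± 0.24) and Bst2 (1.27 ± 0.27, with overlapping domes) were higher, and Ifi27 (-1.42 ± 0.34) and the nucleotide hydrolase gene Samhd1 (-0.996 ± 0.098) were lower. MHC class I presentation genes were higher in 11 of 19 and lower in 0 (6 and 0 after centring), with a median of 0.32. B2m, the light chain of class I molecules, had 114 ± 7.15 FPKM in clone 1 and 275 ± 15.2 FPKM in clone 2 (1.27 ± 0.053, adjusted p = 7.67e-09), and the peptide-trimming gene Erap1 differed by 0.96 ± 0.16.

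Genes of the cornified envelope were lower in clone 2, with 31 of 45 tested members called lower and 7 higher (68.9% lower, against 14.1% of all tested genes) and a median of -0.95. Cnfn, which encodes the envelope protein cornifelin and lies on chromosome 7, 25367616 to 25369724, had 126, 116, 125, 117 and 131 FPKM in the domes of clone 1 and 3.12, 4.55, 3.28, 0.58 and 1.45 FPKM in those of clone 2. On the log2 scale clone 1 had a narrow range and clone 2 a wide one near the floor, and the difference was -5.24 ± 0.28 log2 units (adjusted p = 5.93e-08). Rptn, the gene of the filaggrin-like protein repetin on chromosome 3, 93393699 to 93399442, had 101, 95.5, 95.9, 99.8 and 93.1 FPKM in the domes of clone 1 and 2.1, 2.2, 2.23, 2.31 and 1.72 FPKM in those of clone 2. All domes of clone 2 were thus at a few FPKM, a difference of -4.98 ± 0.07 (adjusted p = 1.16e-12). Crnn, the cornulin gene of the same family, had 535 ± 21 FPKM in clone 1 and 59 ± 2.24 FPKM in clone 2 (-3.16 ± 0.04), and Flg, the filaggrin gene, 26.6 ± 4.26 FPKM in clone 1 and 1.79 ± 0.523 FPKM in clone 2 (-3.31 ± 0.14). The calmodulin-like gene Calm4, with 75 ± 6.45 FPKM in clone 1 and 16.9 ± 1.86 FPKM in clone 2, and Krtdap, the keratinocyte differentiation-associated gene, with 274 ± 33.1 FPKM in clone 1 and 84.4 ± 20.1 FPKM in clone 2, went the same way. Tgm1, the transglutaminase that cross-links the envelope, differed by a smaller amount (-0.33 ± 0.054). Sprr2d, a small proline-rich envelope gene, went against the list, with 19.4, 19.7, 18.9, 18.4 and 32.2 FPKM in the domes of clone 1 and 206, 224, 249, 222 and 237 FPKM in those of clone 2. Its difference was 3.36 ± 0.13 (adjusted p = 5.18e-09). Sprr2f (2.91 ± 0.23), Sprr2a3 (1.33 ± 0.05) and Ecm1, an extracellular matrix protein gene with 188 ± 20.3 FPKM in clone 1 and 661 ± 29.9 FPKM in clone 2 (1.81 ± 0.066), also went against it. Members of the Sprr2 family are near-identical, and the split of reads among them is uncertain.

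Keratins showed the same order. Of 12 tested keratins of stratified epithelium, 8 were lower and 2 higher, with a median of -1.5. Krt1, a keratin of the layers above the basal one (chromosome 15, 101845426 to 101850786), had 297, 304, 310.3, 307 and 279 FPKM in the domes of clone 1 and 20.1, 22, 20.6, 19.8 and 21.2 FPKM in those of clone 2, and its partner Krt10 had 1013, 1049.7, 995, 1018 and 887 FPKM in the domes of clone 1 and 135, 128, 135, 126 and 131 FPKM in those of clone 2. For both genes the clones were separated by a wide gap, with differences of -3.79 ± 0.046 and -2.91 ± 0.046 (adjusted p = 5.21e-13 and 2.55e-12). Keratins of internal stratified epithelia were also lower, with Krt13 at 2857 ± 126 FPKM in clone 1 and 667 ± 24 FPKM in clone 2 (-2.10 ± 0.037) and Krt4 at 5999 ± 155 FPKM in clone 1 and 2231 ± 26 FPKM in clone 2 (-1.43 ± 0.023). The keratins that were higher were Krt17 and Krt16, both known from wounded and hyperproliferative epidermis. Krt17 had 58.7, 58.9, 53.5, 50.3 and 54.3 FPKM in the domes of clone 1 and 396, 395, 388, 384 and 395 FPKM in those of clone 2, a difference of 2.81 ± 0.046 (adjusted p = 3.19e-12), and Krt16 had 105 ± 3.88 FPKM in clone 1 and 156 ± 6.61 FPKM in clone 2 (0.57 ± 0.042). Krt6b was lower (-1.57 ± 0.05), and Krt6a, its near-identical copy, also (-0.31 ± 0.023), so the split between them is uncertain while both point down.

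The rest of the squamous lists followed with smaller differences. Of 13 tested kallikrein and desquamation protease genes, 8 were lower and 3 higher (median -0.80). Klk11 had 19.2, 17, 24.6, 21.9 and 22.1 FPKM in the domes of clone 1 and 0, 0.24, 1.03, 0.52 and 0.84 FPKM in those of clone 2, and was at or near 0 in every dome of clone 2 (-3.88 ± 0.19, adjusted p = 2.88e-08). Klk10 had 18.1 ± 1.66 FPKM in clone 1 and 0.836 ± 0.24 FPKM in clone 2 (-3.38 ± 0.12), while the membrane protease genes Prss22 (0.58 ± 0.088) and Tmprss11g (0.40 ± 0.08) were higher. Desmosome genes were lower in 9 of 13 and higher in 1 (median -0.41). The lower ones included the desmogleins Dsg1b (-1.63 ± 0.11) and Dsg4 (-1.14 ± 0.07), and the higher one was the plakophilin gene Pkp2, with 1.32 ± 0.361 FPKM in clone 1 and 6.22 ± 0.797 FPKM in clone 2. Ceramide and lipoxygenase barrier enzymes were lower in 11 of 17 and higher in 2, with Sdr9c7 (-1.45 ± 0.19) and Sptlc3 (-1.31 ± 0.16) lower and Smpd1 (0.57 ± 0.15) higher. The other higher one, the acid ceramidase gene Asah1, differed by only 0.13 ± 0.043, close to the median of all genes, and was not called after centring (adjusted p = 0.591). Clade B serpins, inhibitors of intracellular proteases, were split, with 2 of 7 higher (Serpinb9 at 1.63 ± 0.15, Serpinb6a at 0.33 ± 0.051) and 2 lower (Serpinb11 at -1.28 ± 0.066, Serpinb1a at -0.96 ± 0.089).

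Transcription factors and receptors of stratification were lower in 20 of 30 and higher in 5 (median -0.31). Klf4, which drives late epidermal differentiation, had 269.7, 266, 271, 272 and 271 FPKM in the domes of clone 1 and 98.5, 100.2, 97.8, 98.6 and 101 FPKM in those of clone 2, a difference of -1.44 ± 0.029 (adjusted p = 1.53e-11). No dome of clone 2 reached the lowest dome of clone 1. Elf5, an ETS factor, had 8.08 ± 0.96 FPKM in clone 1 and 2.07 ± 0.91 FPKM in clone 2 (-1.61 ± 0.20). Trp63, the master regulator of stratified epithelia, differed by a small amount (-0.18 ± 0.053). The higher members included the Notch ligand gene Jag1, with 16.8 ± 1.1 FPKM in clone 1 and 47.6 ± 2.56 FPKM in clone 2 (1.45 ± 0.063), and the factor Maf (1.35 ± 0.13).

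Many of these genes sit together in the epidermal differentiation complex on chromosome 3. Both directions occurred there, in places from gene to gene and in places in runs of neighbours. Between 90511034, the start of S100a1, and 93555117, the start of S100a10 (GRCm38.p6), 41 genes were tested, and 12 were called higher, 16 lower and 13 neither. Among all tested genes, 26.5% were called higher and 14.1% lower. This region was chosen after the values were seen. Neighbours S100a8 and S100a9 were higher, as were Pglyrp3 (2.07 ± 0.21) and the block from Sprr2d to Sprr2g. Beyond them Sprr1b (-1.38 ± 0.041), Sprr1a (-1.29 ± 0.026) and Ivl, the involucrin gene (-1.19 ± 0.046), were lower, followed by Crct1, Crnn, Flg, Hrnr, Rptn and Tchh. Near the middle of the complex, Sprr2a2 was among the most abundant transcripts of both clones, with 15923 ± 730.4 FPKM in clone 1 and 15097 ± 229.9 FPKM in clone 2, and was not called (-0.076 ± 0.03, adjusted p = 0.0633).

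**Figure D3:**
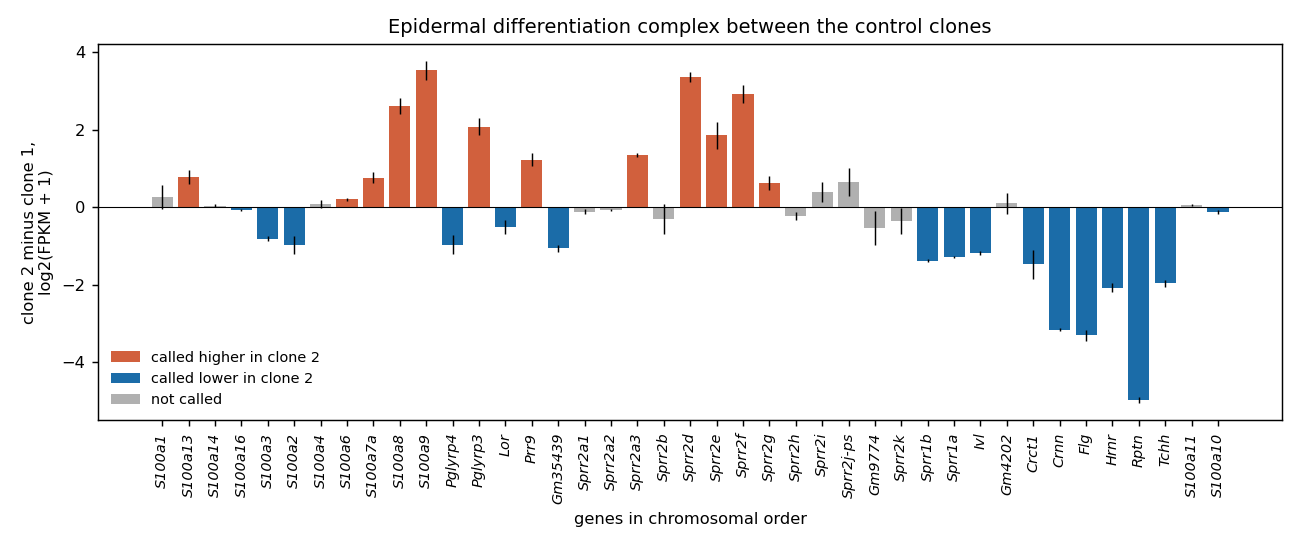
Difference between the control clones (clone 2 minus clone 1, log2(FPKM + 1)) for 41 tested genes of the epidermal differentiation complex in chromosomal order, as bars with the SE and with colours for the call. Bars point up for S100a8, S100a9 and Sprr2d to Sprr2g and down from Sprr1b to Tchh, apart from the uncalled Gm4202 at 0.10, with Rptn lowest at -4.98.

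Most cell cycle genes were higher in clone 2, by moderate amounts. Of 59 tested genes of DNA replication and S phase, 49 were higher and 0 lower (83.1%), with a median of 0.77. Ccne1, the cyclin of S phase entry, had 2.38, 0.98, 1.61, 1.7 and 2.07 FPKM in the domes of clone 1 and 9.53, 6.75, 13.6, 7.78 and 7.04 FPKM in those of clone 2. Its domes did not overlap between the clones, and the difference of 1.84 ± 0.20 was the largest of the list (adjusted p = 1.97e-05). Gins2, a subunit of the replicative helicase, had 2.99, 1.75, 8.75, 7.13 and 4.00 FPKM in the domes of clone 1 and 19.8, 13.4, 11.9, 25.6 and 16.3 FPKM in those of clone 2, with a wide spread in both clones (1.73 ± 0.33, adjusted p = 0.00144). Mcm5, of the same helicase, had 5.95 ± 1.52 FPKM in clone 1 and 16.6 ± 0.328 FPKM in clone 2 (1.37 ± 0.13). Of 84 tested mitosis, spindle and condensation genes, 72 were higher and 0 lower (85.7%), with a median of 0.92. Cdk1, the mitotic kinase, had 10.3, 19.8, 14.9, 19.3 and 33.3 FPKM in the domes of clone 1 and 67.8, 57.2, 61.6, 59.6 and 68.7 FPKM in those of clone 2. Each dome of clone 2 exceeded each dome of clone 1 (1.73 ± 0.23, adjusted p = 0.000101). Aurkb, the kinase of the chromosomal passenger complex, had 4.47 ± 0.325 FPKM in clone 1 and 14.9 ± 1.00 FPKM in clone 2 (1.54 ± 0.082), and the proliferation marker Mki67 had 7.9 ± 0.249 FPKM in clone 1 and 16.3 ± 0.397 FPKM in clone 2 (0.96 ± 0.063). After centring, the medians of these lists were 0.68 and 0.83.

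Promoters of called members are shown as examples of the E2F motif of S phase genes and of the CHR motif of mitotic genes, taken as the called members with the largest difference whose promoter in RefSeq held the motif before the start. The first 3 have TTTCCCGC, TTTGGCGC or TTTCGCGC and the last 2 have TTTGAA, on either strand, in capitals. Each line is a stretch of 80 bases from before the start, 5′ to 3′ on the gene's strand.
Mcm5, chr8:75109330-75109409, plus strand: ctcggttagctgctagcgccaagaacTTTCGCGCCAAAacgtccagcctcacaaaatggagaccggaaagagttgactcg
Hells, chr19:38930898-38930977, plus strand: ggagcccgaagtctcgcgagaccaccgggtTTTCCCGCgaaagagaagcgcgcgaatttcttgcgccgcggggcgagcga
Cdc6, chr11:98907983-98908062, plus strand: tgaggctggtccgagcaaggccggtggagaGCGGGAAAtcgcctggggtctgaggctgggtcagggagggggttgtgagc
Cdk1, chr10:69352913-69352992, minus strand: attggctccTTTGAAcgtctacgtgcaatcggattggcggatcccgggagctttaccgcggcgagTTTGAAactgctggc
Smc2, chr4:52439046-52439125, plus strand: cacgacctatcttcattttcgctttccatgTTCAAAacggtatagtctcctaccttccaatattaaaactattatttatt
Hells is a remodeller of replicating chromatin, Cdc6 a loader of the replicative helicase and Smc2 a condensin subunit. In Mcm5, 2 E2F matches overlap and together cover 12 letters. An E2F motif was in 16 of 47 matched promoters of the tested replication list (34.0%) and in 3.84% of the promoters of 8874 tested genes. For the mitosis list, TTTGAA was in 48 of 72 matched promoters (66.7%, against 11.7%) and CCAAT in 51 of 72 (70.8%, against 39.1%). Among the 61 matched members of the mitosis list that were called higher, 43 (70.5%) held TTTGAA. These counts describe the lists, which were drawn up by function, and say nothing of the clones.

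Genes outside the core cycle machinery were less uniform. Of 44 tested homologous recombination and replication stress genes, 17 were higher and 1 lower (median 0.48). Exo1, an end-resection nuclease, had 1.08, 2.19, 1.34, 1.61 and 0.2 FPKM in the domes of clone 1 and 3.86, 5.74, 12.5, 3.45 and 5.96 FPKM in those of clone 2. It varied widely between domes of both clones, without overlap (1.63 ± 0.33, adjusted p = 0.00197). Chek1, the checkpoint kinase gene, was the exception, with 15.8 ± 2.16 FPKM in clone 1 and 6.59 ± 3.67 FPKM in clone 2, overlapping domes and a difference of -1.25 ± 0.26 (adjusted p = 0.00234). Of 19 tested genes of cohesin and its regulators, 5 were higher (26.3%, against 26.5% of all tested genes) and 1 lower (5.26%, against 14.1%). After centring the counts were 1 and 1. Those higher included Cdca5 (sororin, 1.07 ± 0.20) and Sgo1 (shugoshin), which had 1.67, 2.9, 0.85, 2.68 and 3.29 FPKM in the domes of clone 1 and 9.22, 6.62, 6.14, 5.56 and 1.78 FPKM in those of clone 2, overlapped between the clones and was not called after centring (adjusted p = 0.054). The lower one was the loader gene Mau2 (-0.23 ± 0.062).

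Of 22 tested D cyclin and CDK inhibitor genes, 12 were higher and 2 lower (9 and 4 after centring). Ccnd1, cyclin D1, had 104, 105, 106, 98 and 104 FPKM in the domes of clone 1 and 264, 267, 273, 275 and 270.2 FPKM in those of clone 2, a difference of 1.38 ± 0.034 (adjusted p = 8.42e-11). Cdkn2a, whose products p16 and p19 restrain the cycle, had 29, 30.2, 26.7, 27.1 and 18.7 FPKM in the domes of clone 1 and 108, 114, 115, 104 and 105 FPKM in those of clone 2, a difference of 2.02 ± 0.11 (adjusted p = 6.22e-08). Both the cyclin and the inhibitor were therefore higher in every dome of clone 2 than in any of clone 1. Cdkn1b (-0.40 ± 0.063) and Cdkn2c (-0.57 ± 0.11), which encode p27 and p18, were lower. Of 60 tested genes of the MYC network and nucleolar ribosome biogenesis, 37 were higher and 4 lower (median 0.43). Myc had 36.4 ± 4.36 FPKM in clone 1 and 55.6 ± 2.79 FPKM in clone 2 (0.61 ± 0.079), Grwd1 (1.07 ± 0.16) and Dkc1, the dyskerin gene (1.01 ± 0.15), led the higher genes, and Mxd1, an antagonist of MYC, was lower, with 40.6 ± 2.3 FPKM in clone 1 and 13.3 ± 0.96 FPKM in clone 2 (-1.54 ± 0.067). Mlx, a partner of MYC network proteins, was lower too (-0.56 ± 0.14), with overlapping domes.

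**Figure D4:**
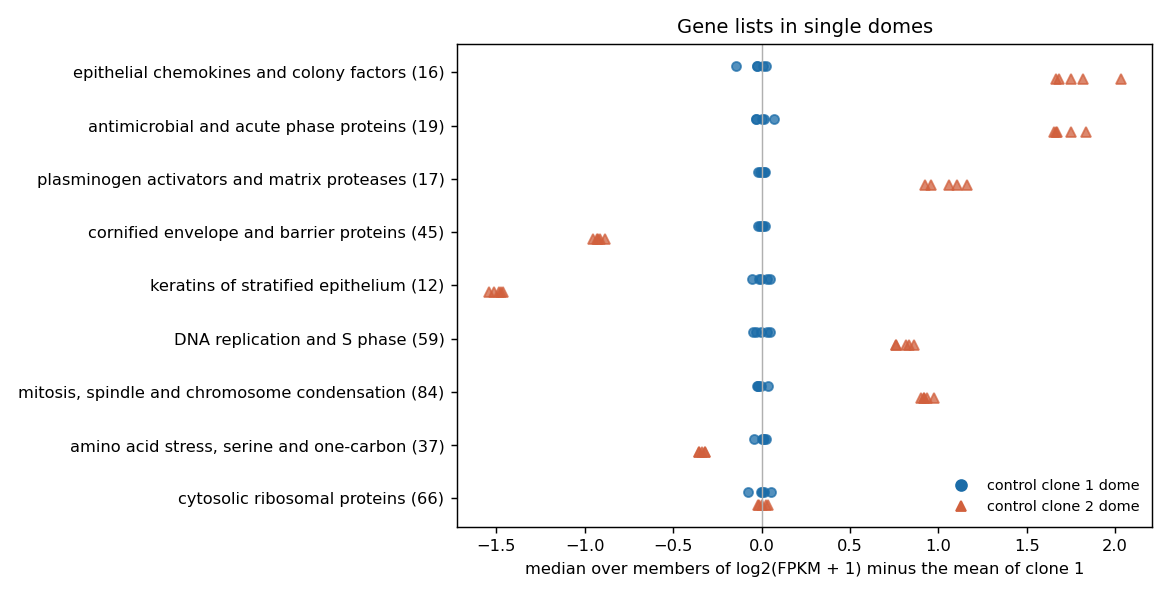
For 9 gene lists, the median over tested members (number in brackets) of log2(FPKM + 1) minus the clone 1 mean of each gene, with a symbol for each control dome. The 5 domes of clone 2 lie apart from the 5 of clone 1 in 8 of the lists, at 1.67 to 2.03 for chemokines and -0.95 to -0.88 for the cornified envelope, and intermingle for the ribosomal proteins.

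Among metabolic genes, the clearest difference was in amino acid stress, serine and one-carbon genes, of which 26 of 37 were lower and 2 higher in clone 2 (70.3% lower), with a median of -0.33. Chac1, a glutathione-degrading target of ATF4, had 21.5, 18.6, 15.7, 20.2 and 20.9 FPKM in the domes of clone 1 and 2.98, 3.68, 3.95, 3.58 and 3.59 FPKM in those of clone 2, a difference of -2.16 ± 0.10 (adjusted p = 2.11e-08). The lowest dome of clone 1 was well above the highest dome of clone 2. Slc7a5, an amino acid transporter gene, had 49.99 ± 0.914 FPKM in clone 1 and 21 ± 6.94 FPKM in clone 2 (-1.26 ± 0.16), and Atf4, Asns and Psat1, the last 2 being enzymes of asparagine and serine synthesis, differed by -0.61 ± 0.041, -0.87 ± 0.063 and -0.87 ± 0.06. Phgdh, which opens the serine pathway, had 46.1 ± 2.43 FPKM in clone 1 and 46.7 ± 2.27 FPKM in clone 2 and was not called. The 2 higher members were the mitochondrial and cytosolic folate enzyme genes Mthfd1l (1.12 ± 0.10) and Mthfd1 (0.57 ± 0.089).

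Among energy metabolism genes more were higher than lower, by small amounts, but many were not called. Glycolysis and lactate transport genes were higher in 15 of 22 and lower in 2 (median 0.21, 10 and 2 after centring), with the lactate transporter Slc16a1 (1.13 ± 0.10) and Pfkfb3 (0.93 ± 0.14) leading, Ldha at 0.38 ± 0.022, and Slc16a3, another lactate transporter, lower (-0.87 ± 0.094) together with Hk1 (-0.14 ± 0.042). Nuclear subunits of oxidative phosphorylation were higher in 32 of 78 and lower in 3, against 17 higher and 6 lower after centring. The largest differences in that list were 0.52 ± 0.11 for Ndufb6 and -0.30 ± 0.036 for Uqcr10. Of 13 transcripts of mitochondrial DNA, 1 was higher (mt-Nd6, 0.56 ± 0.16, with overlapping domes) and 6 were lower, led by mt-Co2 (-0.30 ± 0.091, overlapping) and mt-Nd4 (-0.30 ± 0.064). Among them mt-Co3 was between 0.05 and 625 FPKM in the domes of clone 1 and between 0.12 and 549 FPKM in those of clone 2. This spread lay between domes of the same culture. Whether it came from expression or from the assignment of reads was not tested. Citric acid cycle genes were higher in 13 of 30 and lower in 2 (8 and 3 after centring), with Me2 (0.94 ± 0.15) and Idh3a (0.57 ± 0.055) higher and pyruvate carboxylase, Pcx (-1.15 ± 0.077), and Pdhx (-0.71 ± 0.088) lower. Hypoxia targets outside glycolysis were higher in 17 of 27 and lower in 6 (median 0.33). Plod2, a collagen lysyl hydroxylase gene (1.98 ± 0.19), and the carbonic anhydrase gene Car9 (1.25 ± 0.22) were higher, while Epas1, the HIF-2 alpha gene, with 30.1 ± 0.876 FPKM in clone 1 and 12.1 ± 1.44 FPKM in clone 2 (-1.25 ± 0.077), and Adm (-1.03 ± 0.22) were lower.

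Lists of lipid metabolism were mixed in direction. Cholesterol synthesis and uptake genes were higher in 7 of 26 (26.9%, against 26.5% of all tested genes) and lower in 3 (11.5%, against 14.1%). After centring the counts were 5 and 6. Dhcr7 (-0.43 ± 0.085) and Tm7sf2 (-0.37 ± 0.092), late enzymes of the pathway, were lower. Fatty acid synthesis genes were higher in 7 of 19 and lower in 4 (6 and 6 after centring), with the desaturase genes Fads3 (2.17 ± 0.15), Fads2 (1.44 ± 0.098) and Scd1 (0.77 ± 0.063) higher and Acss2 (-0.77 ± 0.11) and Agpat2 (-0.61 ± 0.076) lower. Fatty acid oxidation and peroxisome genes were lower in 12 of 30 and higher in 5 (median -0.18), with Cpt1a, the carnitine transferase gene, at -0.75 ± 0.077 and catalase, Cat, at -0.67 ± 0.046, against Decr1 (1.01 ± 0.16) and Eci2 (0.61 ± 0.14). Of 18 fatty acid binding, acyl-CoA and lipid droplet genes, 5 were called in each direction (4 higher and 6 lower after centring). Plin2, which coats lipid droplets, had 12.5 ± 2.00 FPKM in clone 1 and 50.8 ± 5.38 FPKM in clone 2 (1.95 ± 0.11), Acot7 differed by 1.000 ± 0.073, and Acsl1 (-1.39 ± 0.12) and Slc27a4 (-1.07 ± 0.054) were lower.

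Redox and detoxifying genes were split. Of 45 glutathione, NRF2 and antioxidant genes, 18 were higher and 14 lower. The peroxidases Prdx4 (1.83 ± 0.13) and Gpx2 (1.24 ± 0.061) were higher, and the NRF2 target Nqo1, with 6.96 ± 1.33 FPKM in clone 1 and 0.992 ± 0.623 FPKM in clone 2 (-2.04 ± 0.22), and the glutathione transferase Gsta3 (-1.73 ± 0.12) were lower. Steroid and xenobiotic enzymes were higher in 12 of 33 and lower in 8 (11 and 11 after centring), with Cyp7b1 (1.74 ± 0.19) and Ephx2 (1.55 ± 0.13) higher and the aldehyde dehydrogenase Aldh3b2 (-1.45 ± 0.064) and alcohol dehydrogenase Adh1 (-1.32 ± 0.15) lower. Retinoid genes were lower in 11 of 19 and higher in 5 (median -0.25). The dehydrogenases Rdh12 (-1.89 ± 0.13) and Aldh1a7 (-1.57 ± 0.067) were lower, whereas the receptor Rarb (1.34 ± 0.18) and the retinoid-responsive Rarres1 (1.82 ± 0.18) were higher. Of 15 arginase, urea cycle and polyamine genes, 7 were higher and 2 lower. Ass1, argininosuccinate synthase, had 26.7, 27.6, 28.6, 28.6 and 25.1 FPKM in the domes of clone 1 and 108, 98.6, 116, 109 and 118 FPKM in those of clone 2, a difference of 1.97 ± 0.06 (adjusted p = 5.74e-10). Arg1 (-0.56 ± 0.04) and the polyamine enzyme Sat1 (-0.18 ± 0.033) were lower.

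Metallothioneins, which bind zinc and copper, went in opposite directions. Mt3 had 72.2, 70.2, 73.5, 79.2 and 61.3 FPKM in the domes of clone 1 and 5.9, 4.03, 6.8, 5.19 and 4.9 FPKM in those of clone 2, a difference of -3.52 ± 0.11 (adjusted p = 8.82e-10), and Mt4, known from stratified epithelium, had 1814 ± 146 FPKM in clone 1 and 484 ± 35.2 FPKM in clone 2 (-1.90 ± 0.062). In contrast Mt1 had 683 ± 42.2 FPKM in clone 1 and 1264 ± 38.5 FPKM in clone 2 (0.89 ± 0.043) and Mt2 2536 ± 126 FPKM in clone 1 and 4603 ± 41.4 FPKM in clone 2 (0.86 ± 0.033). The zinc importers Slc39a4 (2.17 ± 0.16) and Slc39a8 (1.82 ± 0.19) were higher in clone 2. The 15 tested members of this list had 5 calls higher and 4 lower.

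Lineage markers did not move as blocks. Of 25 tested basal markers, 15 were higher and 7 lower (median 0.42). Beside Krt17 and Il33, the growth factor Nrg1 was higher (1.90 ± 0.11), and Krt14 had 3289 ± 149 FPKM in clone 1 and 5179.9 ± 67.3 FPKM in clone 2 (0.66 ± 0.031), while Krt15 had 12019 ± 779 FPKM in clone 1 and 6445 ± 125 FPKM in clone 2 (-0.90 ± 0.04), Dlk2 -1.97 ± 0.13 and Igfbp2 -1.85 ± 0.15. Luminal markers were higher in 9 of 18 and lower in 4 (median 0.29). Prom1, the CD133 gene, had 1.47, 1.9, 2.35, 2.46 and 0.74 FPKM in the domes of clone 1 and 18.2, 21.9, 18.5, 24.6 and 23.9 FPKM in those of clone 2, a difference of 3.04 ± 0.18 (adjusted p = 1.60e-07), and the matrilysin gene Mmp7 had 274 ± 10.1 FPKM in clone 1 and 857 ± 31.6 FPKM in clone 2 (1.64 ± 0.036). Gata3 (-0.72 ± 0.064) and Fkbp5 (-0.73 ± 0.039) were lower. Luminal progenitor markers were higher in 9 of 23 and lower in 11. Basp1 had 8.08 ± 0.669 FPKM in clone 1 and 78.3 ± 4.14 FPKM in clone 2 (3.13 ± 0.067), and Aqp3, a water and glycerol channel that is also abundant in stratified epithelium, had 1186, 1147, 1141, 1202 and 1129.9 FPKM in the domes of clone 1 and 298, 309, 293, 321 and 307 FPKM in those of clone 2, a difference of -1.92 ± 0.032 (adjusted p = 3.61e-12). Androgen responsive genes were higher in 11 of 28 and lower in 7, with Steap4 (2.05 ± 0.13) and Pmepa1 (1.46 ± 0.10) higher and Hpgd (-1.44 ± 0.20) and Tsc22d3 (-1.08 ± 0.096) lower. Of the markers of other cell types, 14 were tested, with 2 higher (Cd68 and Egfl7, both with overlapping domes) and 6 lower. The urothelial and seminal vesicle list summed to 258 to 286 FPKM in clone 1 and 90.5 to 105 FPKM in clone 2, mostly from Upk3bl (225 ± 13.1 FPKM in clone 1 and 63.2 ± 6.45 FPKM in clone 2), and Upk2 was lower too (-1.08 ± 0.28). The matrix proteoglycan gene Dcn, a fibroblast marker, had 2.8 ± 0.426 FPKM in clone 1 and 0.342 ± 0.247 FPKM in clone 2, and Calca, a neuroendocrine marker, 2.92 ± 0.934 FPKM in clone 1 and 0.856 ± 0.606 FPKM in clone 2.

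Genes of plasminogen activation and matrix proteolysis were a further group on the higher side, while signalling lists were less uniform. Plasminogen activators, matrix proteases and their inhibitors were higher in 14 of 17 and lower in 2 (82.4% higher, median 1.04). Serpine2, an inhibitor of plasminogen activators, had 2.13, 4.52, 3.1, 3.25 and 3.09 FPKM in the domes of clone 1 and 27.3, 26.8, 27.7, 27.4 and 27.3 FPKM in those of clone 2, a difference of 2.77 ± 0.13 (adjusted p = 1.53e-08). Timp1 (2.16 ± 0.20), the urokinase gene Plau (1.04 ± 0.076) and its receptor Plaur (1.71 ± 0.11) were higher as well, and Adamts1 (-0.73 ± 0.031) and the lysosomal protease Ctsh (-0.28 ± 0.091, with overlapping domes) were lower. The list of TGF-beta, BMP, Wnt and Notch genes was split. Of its 40 tested members, 18 were higher (45%, against 26.5% of all tested genes) and 12 lower (30%, against 14.1%). After centring the counts were 18 and 14. Inhba, the activin A subunit, had 5.72, 5.13, 7.33, 4.76 and 4.6 FPKM in the domes of clone 1 and 67.8, 62, 56.4, 56.7 and 57.7 FPKM in those of clone 2, and Wnt5a, a non-canonical Wnt ligand, 0.29, 0.45, 0.33, 0.14 and 0.64 FPKM in the domes of clone 1 and 10.9, 10.5, 14.5, 9.16 and 9.89 FPKM in those of clone 2. Both ligands were far higher in every dome of clone 2 (3.24 ± 0.11 and 3.12 ± 0.15, adjusted p = 1.26e-09 and 1.99e-08). The Wnt receptors Fzd10 (-1.54 ± 0.19) and Fzd6 (-0.95 ± 0.063) were lower. EGF receptor family genes, ligands and ERK feedback genes were higher in 12 of 23 and lower in 4 (median 0.45). Nrg1 and the ERK phosphatase Dusp6 (1.39 ± 0.089) were higher, and the receptors Erbb2 (-0.58 ± 0.058) and Erbb3 (-0.66 ± 0.057) were lower.

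Stress and housekeeping lists were less clear. Among all tested genes, 26.5% were called higher and 14.1% lower. Immediate early and heat shock genes were higher in 14 of 29 (48.3%) and lower in 10 (34.5%). The AP-1 gene Fosl1 was higher (1.76 ± 0.12), whereas Fosl2 (-0.82 ± 0.042) and Fos (-0.66 ± 0.21, with overlapping domes) were lower. Of 29 p53 target and apoptosis genes, 15 were higher (51.7%) and 6 lower (20.7%), against 10 and 9 after centring. Bid (1.52 ± 0.13) and the death receptor Tnfrsf10b (1.10 ± 0.089) were higher, and Bmf (-1.004 ± 0.20) and Sesn1 (-0.89 ± 0.11) were lower. Genes of ER stress and secretory load were higher in 10 of 21 (47.6%) and lower in 1 (4.76%). Sdf2l1 (1.36 ± 0.14) and the disulfide isomerase Pdia6 (1.07 ± 0.043) led the higher genes, and Atf6 was lower (-0.44 ± 0.078). Of 66 cytosolic ribosomal protein genes, 12 were higher (18.2%) and 6 lower (9.09%), both below the shares of all tested genes. After centring 6 were higher and 23 lower, so their balance depended on the scaling. Among the larger of these differences were 0.40 ± 0.032 for Rps2, 0.24 ± 0.043 for Rpl38 and -0.24 ± 0.04 for Rps27. The Y-linked gene Eif2s3y had 37.9 ± 5.29 FPKM in clone 1 and 45.8 ± 3.33 FPKM in clone 2, and Xist was listed at 0 in all 10 libraries of both clones.

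Some genes were on in 1 clone and off in the other, with at least 1 FPKM in all 5 domes of the former and at most 0.1 FPKM in all 5 of the latter. This held for 13 genes. Among those on in clone 1 only were Ly6k, of the LY6 family, with 5.63, 4.5, 5.47, 5.14 and 9.95 FPKM, Xlr3a, an X-linked gene with near-identical copies, with 3.59, 2.48, 10.2, 2.45 and 2.89 FPKM, Tshz3, a zinc finger factor, with 2.48, 3.18, 3.56, 2.71 and 3.8 FPKM, and Bcl11a, a transcriptional repressor, with 1.5, 2.27, 1.02, 1.9 and 1.11 FPKM. All 4 were listed at 0 in every dome of clone 2. Among those on in clone 2 only were Wfdc18, S100a8, Lbp and Ccl2, described above, together with Dpysl3 and Mtcl1. The remaining 3 were the pseudogene Rps4l and the transcript 1700030C10Rik, with means of 16.6 and 2.3 FPKM in clone 1, and the transcript 2610307P16Rik, with a mean of 2.22 FPKM in clone 2. Dpysl3, of the collapsin response family, had 4.32, 3.82, 1.84, 2.96 and 2.00 FPKM and Mtcl1, a microtubule cross-linking protein gene, 2.54, 1.9, 5.27, 1.99 and 2.59 FPKM in the domes of clone 2, and neither passed 0.06 FPKM in clone 1. No fold is given against a clone at 0. Called genes lay on all chromosomes, with medians by chromosome between 0.055 (chromosome 17) and 0.13 (chromosome 5) among autosomes, and 0.13 on X, so no chromosome stood far from the median of 0.10.

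Whether these differences exceed those between another pair of clones was asked with the T-ERG libraries. Clone numbers do not tie a control clone to a T-ERG clone, so sizes were compared without regard to sign. The median absolute difference was 0.264 between the control clones and 0.221 between the T-ERG clones over the same 12010 genes. The clone difference was larger in control than in T-ERG for 1245 genes (10.4%) and larger in T-ERG for 446 (3.71%), by the larger of the p-values of both contrasts in limma, adjusted over all genes. Of the squamous genes, 68 of 137 (49.6%) had the larger difference in control and 17 (12.4%) in T-ERG. For inflammatory genes the counts were 40 (34.5%) and 6 (5.17%) of 116, and for metabolic genes 86 (20.4%) and 40 (9.48%) of 422. For proliferative genes they were 23 (8.10%) and 13 (4.58%) of 284. The shares larger in control were thus above the background of 10.4% for squamous, inflammatory and metabolic genes and not for proliferative genes, while the shares larger in T-ERG were above the background of 3.71% in all 4 themes. The genes had passed a filter on the control libraries alone, which admits genes on in a single control clone and drops those on in a single T-ERG clone. With genes that passed it in either genotype, a set chosen after the data were seen that added 362 genes, the difference was larger in control for 1247 of 12372 genes (10.1%) and in T-ERG for 473 (3.82%), and the median absolute differences were 0.266 and 0.225. Of the squamous genes, 69 of 154 (44.8%) then had the larger difference in control and 20 (13%) in T-ERG. Of the DNA replication list 49 were called higher in control clone 2 and 50 in T-ERG clone 2. Of the mitosis list the counts were 72 and 76, and 0 genes of either list were lower in either genotype. Among all tested genes, 18.2% were called higher and 15.3% lower in T-ERG clone 2. The medians were 0.77 and 0.73 for replication and 0.92 and 0.93 for mitosis. That the direction is the same in both genotypes rests on how the clones are numbered, so only the sizes can be compared.

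Genes with large differences in control behaved variously in T-ERG. Ltf had 72.3 and 69.7 FPKM in T-ERG clones 1 and 2, a difference of -0.051, so that its level there lay between those of the control clones. Krt1 had 314 and 869 FPKM (1.47), and Klf4 had 158 and 162 FPKM (0.03). Cxcl5 had 15.6 and 0.79 FPKM (-3.28) and was higher in the clone that the labels number 1. Of the 24 leading genes, 23 had a larger difference in control. They were chosen for that difference, so this count is a description. The exception was Zg16, at -2.54 in T-ERG. A few named genes differed far more between the T-ERG clones, among them Arg1, with 304 and 23 FPKM (-3.67), and Wfdc18, with 87.4 and 0 FPKM (-6.46).

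**Figure D5:**
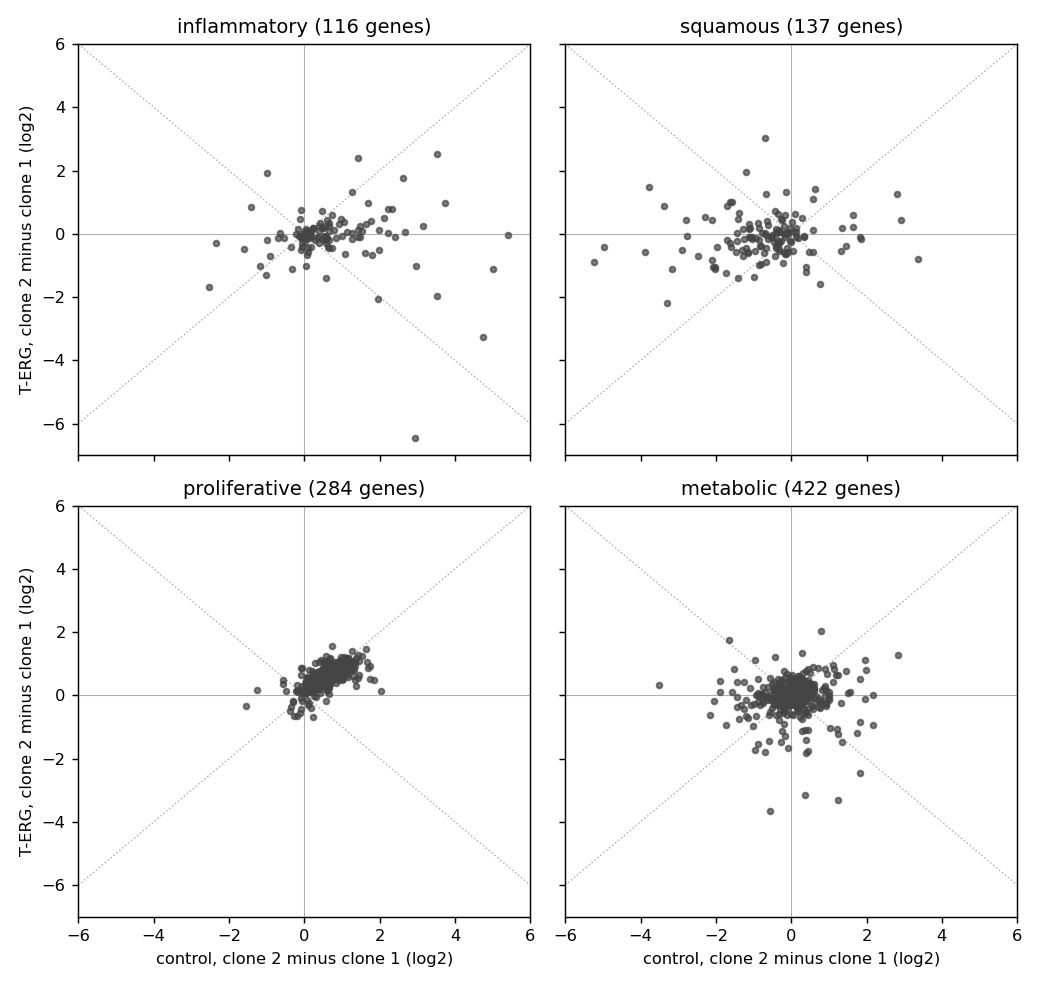
Each point is a tested gene of the 4 themes, with the control clone difference on the horizontal and the T-ERG clone difference on the vertical axis (both clone 2 minus clone 1, log2(FPKM + 1)), and dotted lines where both are of equal size. Squamous and inflammatory genes stretch along the horizontal axis, whereas proliferative genes lie along a line of equal size, with DNA replication medians of 0.77 and 0.73. Which of the dotted lines they follow depends on the numbering of the clones, which does not tie a control clone to a T-ERG clone.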

How the data were processed

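RNA of single organoid domes was sequenced (5 libraries for each of control clones 1 and 2). The authors deposited log2 values of FPKM, as log2(FPKM + 1), in a table of 54838 genes, of which 2321 carry no symbol. The scale was checked: undoing it gave FPKM values of 2 decimals in every cell. Per the submitters' processing notes, RSEM 1.3.0 and DESeq2 were used with mm10. What each did, which aligner ran and which annotation served is not given in the sources used. Per the labels' protocols, complementary DNA was barcoded and pooled before it was fragmented, so levels per length are less sure than differences within a gene. Read counts and depth are unknown. In 2 T-ERG columns the header was the same, and both were used as libraries of T-ERG clone 2 without a number. The 4 whole-genome libraries were not analysed here.

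Genes at 1 FPKM or above in 5 or more of the 10 control libraries were tested with limma 3.58.1 (R 4.3.3) on log2(FPKM + 1) with an intensity trend, two-sided, with Benjamini-Hochberg adjustment over 12010 genes and a threshold of 0.05. The comparison with T-ERG was fitted on all 20 libraries. On simulated data of these 12010 genes, the test between the clones called 44% of changes of 0.5 log2 units, 84% of changes of 1 and 98% of changes of 2, and 5 of 11810 unchanged genes. The simulated domes varied independently and far fewer genes changed than the 40.5% called between the clones. These shares therefore describe the simulation and do not carry over to the data.

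The members and the 51 gene lists were chosen with earlier results of these data known. Named genes are the 12 largest called differences in each direction with a mean of at least 5 FPKM and domes apart, up to 2 called genes in each direction of each list, Erg, Tmprss2 and Rad21, up to 10 genes on in 1 clone and off in the other, and the 8 of these with the widest spread between domes. A few genes that this rule names are not reported here. The leading genes hold no predicted genes or pseudogenes. Gene lists were described by counts and medians, without a test. Positions and promoters are from RefSeq on GRCm38.p6, the assembly of mm10, matched by symbol (11373 of 12010 tested genes had a position). The alternatives were a pseudocount of 0.1, no filter, a mean of at least 5 FPKM, median centring, quantile normalization, no trend, array weights, all 20 libraries, the dome number as a block and each dome left out.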

Additional observations from a re-analysis of the deposited data

Results flagged for a closer look

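A dome was singled out where its gap to the nearest other dome of its clone, as a share of the range of the 5 domes, was above 0.71. That held for 29 of 392 groups of domes, and chance flags about 1 in 20 groups. A dome of clone 1 was apart as the lowest for Adamts1 (0.772), Atf6 (0.838), Cdkn2a (0.738), Chek1 (0.781), Defb1 (0.718), Erg (0.754) and Mmp7 (0.851). A dome of clone 1 was apart as the highest for Gpnmb (0.858), Ly6k (0.729), Prss22 (0.733), Sprr2d (0.879), Tnfrsf10b (0.758) and Xlr3a (0.758). A dome of clone 2 was apart as the lowest for Aldh1a7 (0.711), Aurkb (0.792), Grwd1 (0.719), Lcn2 (0.738), Maf (0.925), Ndufb6 (0.743), Pdia6 (0.759), Slc16a3 (0.77), Steap4 (0.718) and mt-Co2 (0.909). A dome of clone 2 was apart as the highest for Car9 (0.797), Ctgf (0.89), Flg (0.837), Fosl1 (0.812), Mtcl1 (0.723) and Slc7a5 (0.722).

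The gap was between a dome and the rest of its own clone. Gpnmb had 32.9 FPKM in dome 1 of clone 1 and 18.4 to 20.0 FPKM in the others, Sprr2d 32.2 FPKM in dome 5 of clone 1 against 18.4 to 19.7 FPKM, and Lcn2 29.1 FPKM in dome 6, of clone 2, against 41.0 to 46.3 FPKM. For Slc7a5 dome 7, of clone 2, had 33.2 FPKM and the others 15.8 to 19.5 FPKM, still below clone 1. For mt-Co2 dome 10, of clone 2, had 3737 FPKM against 4917 to 5054 FPKM. These values are given without an explanation.

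A second group was singled out because the difference between clones was larger in control than in T-ERG, by the test of that difference in limma. The genes are given with the log2 difference of clone 2 minus clone 1 in control and then in T-ERG. Higher in control clone 2 were Ltf (5.39 and -0.051), Cxcl3 (5.01 and -1.10), Cxcl5 (4.75 and -3.28), Cp (3.82 and -0.81), Cxcl1 (3.73 and 0.97), Galnt6 (3.69 and -0.48), Pxdn (3.54 and 0.22), S100a9 (3.53 and 2.52), Lcn2 (3.52 and -1.96), Thbs1 (3.45 and -0.39), Ctgf (3.42 and -0.19) and Cald1 (3.37 and 0.83). Lower were Cnfn (-5.24 and -0.89), Rptn (-4.98 and -0.42), Klk11 (-3.88 and -0.57), Krt1 (-3.79 and 1.47), Ntm (-3.62 and -0.68), Mt3 (-3.52 and 0.32), Dapl1 (-3.49 and 0.49), Klk10 (-3.38 and 0.87), Flg (-3.31 and -2.18), Crnn (-3.16 and -1.12) and Gpnmb (-3.01 and 0.47). They were chosen for their size in control, so how many of them there are describes the choice.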

How the results depend on the processing

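Each count and named gene was recomputed under the 9 other settings and with each dome left out, except that the counts against T-ERG, which use all 20 libraries, had 7 settings and the filter passed in either genotype. Of the counts that answer the comparison, the number of genes higher in clone 2 by at least 1 log2 unit moved, from 562 to 350 at a mean of at least 5 FPKM, where fewer genes were tested. The other such counts stayed within 1.5 times. Of 102 counts of single lists, 36 moved by over 1.5 times under at least 1 setting, and of 51 list medians 32 moved by more than the spread between domes, mostly under centring, quantile normalization and the filters on low values. Leaving out each dome gave 2912 to 3106 genes higher and 1570 to 1646 lower, 549 to 585 and 325 to 338 at 1 log2 unit or more, 61 to 64 inflammatory genes higher, 85 to 90 squamous genes lower and 174 to 185 proliferative genes higher. No named gene changed sign. Of 196 named genes, 11 lost their call under at least 1 setting, among them Asah1, Cd68, Ctsh, Eif2s3y, Fos, Hk1, Ndufa6, Rps27, Sgo1 and mt-Co2. In 7 of the 11 the call was lost when certain single domes were left out (their number in brackets), with limma adjusted p up to 0.0866 for Asah1 (6), 0.0556 for Cd68 (5), 0.0666 for Ctsh (5), 0.0828 for Eif2s3y (5), 0.0619 for Fos (6), 0.0537 for Ndufa6 (2) and 0.0782 for Sgo1 (6). Tmprss2 gained a call under centring and under quantile normalization. Domes were not treated as paired by technical replicate number, since deviations of same-numbered domes correlated at only 0.037 to 0.057, under the chosen limit of 0.1. These correlations were all positive, and 4 of 5 domes of clone 1 correlated most with their own number. A weak effect shared by number was not tested. With the replicate number as a block, 2940 genes were higher and 1570 lower, 572 and 337 at 1 log2 unit or more. As limits, the design holds 2 cultures, FPKM carries no depth, differences of genes near 0 are understated, and a difference between these clones is not one between kinds of clone.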

Other observations

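Many strong differences lay outside the lists. Of 600 called genes with a difference of at least 1 log2 unit, domes apart and a mean of at least 5 FPKM, 384 were in no list. The genes that follow were chosen after their values were seen, from the 12 largest of these in each direction beyond the leading genes. On the higher side of clone 2, further immune genes joined the chemokines. Pglyrp1, a bactericidal recognition protein of neutrophil granules, had 22 ± 1.95 FPKM in clone 1 and 160.1 ± 7.68 FPKM in clone 2, a difference of 2.81 ± 0.063 log2 units. Ppbp, the CXCL7 chemokine gene, had 19.3 ± 3.12 and 139.5 ± 6.29 FPKM, a difference of 2.80 ± 0.091. Il18rap, the second chain of the IL-18 receptor, differed by 2.66 ± 0.19, beside Il18r1 of the IL-1 list. Lgals1, the galectin-1 gene, had 1.70 ± 0.751 and 20.7 ± 2.31 FPKM. The Wnt inhibitor Wif1 (2.94 ± 0.18), the GTPase Rhoc (2.73 ± 0.21), the basement membrane collagen Col4a2 (2.73 ± 0.13) and the troponin gene Tnnt2 (2.69 ± 0.16) were higher as well.

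On the lower side, Slurp1, a secreted LY6 protein of keratinocytes, had 1772 ± 73.0 FPKM in clone 1 and 267 ± 21.9 FPKM in clone 2, a difference of -2.73 ± 0.055 log2 units, and Ly6k of the same family was listed at 0 in clone 2. The beta-defensin Defb50 had 37.7 ± 10.4 and 4.33 ± 2.02 FPKM, and its difference of -2.91 ± 0.28 had a counterpart of -3.20 between the T-ERG clones. The transcription factor genes Isl1 (41.0 ± 3.07 and 7.71 ± 1.64 FPKM) and Osr2 (-2.50 ± 0.14), the keratin Krt32 (-2.66 ± 0.22), the prostaglandin E receptor Ptger3 (-2.30 ± 0.15) and the carnitine synthesis enzyme Bbox1 (-2.54 ± 0.24) were also lower.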
